A study of Caenorhabditis elegans with 24 samples.

Results

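Removal of ceh-60 in animals that already carry a pqm-1 mutation was examined in 6 RNA-seq libraries, out of 24 in the series. The 3 libraries of the ceh-60(ok1485); pqm-1(ok485) strain DLS420, called the double mutant, were compared with the 3 libraries of the pqm-1(ok485) strain DLS421. They were chosen by genotype and age from the sample labels, and all genes of the count table were considered. Both groups were whole Caenorhabditis elegans adults on day 1 and both carried pqm-1(ok485), so the ceh-60(ok1485) allele is what the labels say differs between them. For comparison, 12 further day 1 libraries came from ceh-60(ok1485); pqm-1(rhd90), pqm-1(rhd90), ceh-60(ok1485) and wild type animals, with 3 in each group. The labels state neither what each allele removes nor whether the replicates grew as separate cultures. The p-values therefore cover only how much these libraries vary, which may be technical. Each strain is 1 line.

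The product of ceh-60 is a transcription factor of the PBX class, whose members bind DNA through a homeodomain together with MEIS partners. In adult worms it is known to act in the intestine, where yolk proteins are made before they are secreted and taken up by oocytes. pqm-1 encodes a zinc finger transcription factor of the intestine that is known for metabolic and stress genes and for the vitellogenin genes that encode yolk proteins.

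With ceh-60 removed in the pqm-1(ok485) background, the transcripts of all 6 vitellogenin genes fell to a small share of their level. Some genes of intestinal digestion, detoxification and defence rose. Among 13324 tested genes, 634 were higher in the double mutant (4.76% of those tested) and 561 were lower (4.21%). A call required a Benjamini-Hochberg adjusted p under 0.05 in edgeR's quasi-likelihood test, as in all adjusted p-values given here. At a change of at least 2-fold, 233 genes were higher (1.75%) and 187 lower (1.4%). The 3 double mutant libraries all lay above the 3 pqm-1(ok485) libraries for 1603 genes (12%) and all below for 1878 (14.1%). The calls come from a fit without a block. Between same-numbered libraries of both groups, deviations from the group means correlated at 0.482, 0.471 and 0.156 across genes. With the replicate number as a block, 1081 genes were higher and 1079 lower. When libraries were scaled by their totals alone, 1874 genes were higher and 455 lower.

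Replicate 1 of pqm-1(ok485) stood apart from the other libraries of its group. Its counts differed from theirs by a chi-square of 27.5 and 22.2 per degree of freedom, against 4.66 between replicates 2 and 3, while pairs of double mutant libraries gave 5.84 to 11.9. It was also the deepest, within a range of 19847466 to 30921124 counts per library. Its deviations from the group mean correlated at 0.482 with those of replicate 1 of the double mutant. Without replicate 1 of pqm-1(ok485), 739 genes were higher and 367 lower in the double mutant. Without replicate 1 of both groups, 594 were higher and 286 lower. Without replicate 3 of the double mutant, 455 were higher and 283 lower.

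**Figure D1:**
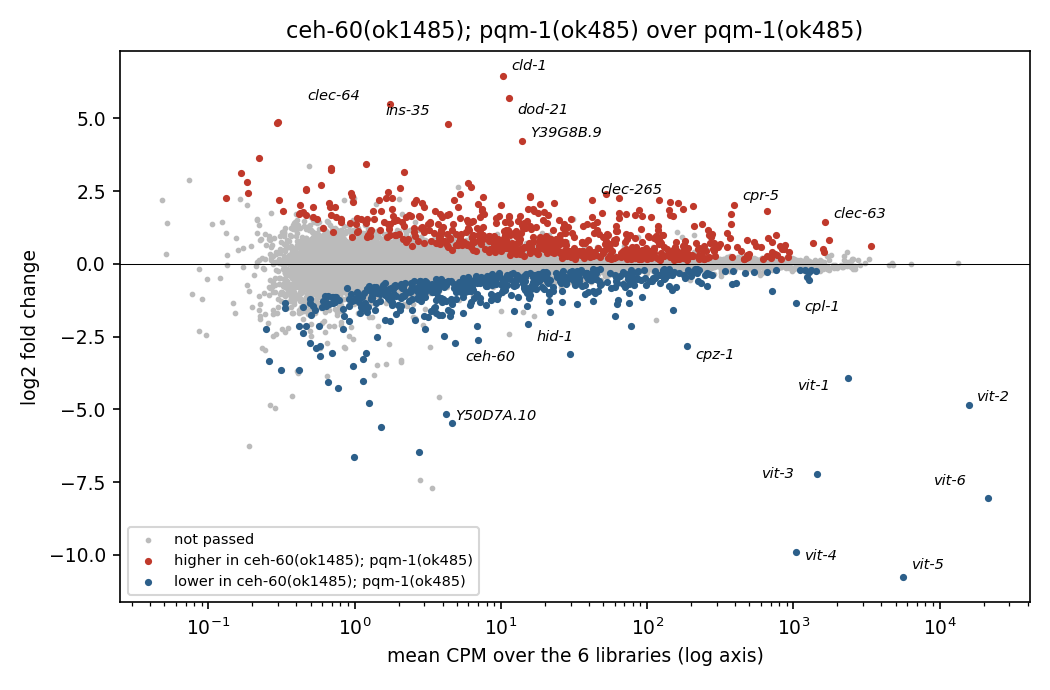
Log2 fold change of the double mutant over pqm-1(ok485) against mean CPM (TMM-scaled, log axis) for the 13324 tested genes, with genes past the threshold in red (higher) and blue (lower) and the rest in grey. The vitellogenin genes lie at the lower right, with log2 fold changes between -10.77 and -3.92, while cld-1 and dod-21 are the highest labelled points.

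The mutated genes were examined first. ceh-60 (gene WBGene00017690, on the reverse strand of chromosome X at 6522596 to 6530148, in coordinates of the count tables with WormBase release 260) was at 1.32, 1.37 and 1.17 CPM in the double mutant, against 8.68, 9.11 and 7.51 CPM in pqm-1(ok485). CPM gives a gene's counts relative to the library total after scaling by the trimmed mean of M-values (TMM), and every ceh-60 value of the double mutant lay below every value of pqm-1(ok485). The log2 fold change was -2.71 ± 0.17 (SE, adjusted p = 9.04e-07 by edgeR). pqm-1 (gene WBGene00004096, on the reverse strand of chromosome II at 11150299 to 11152600) was at 4.79, 5.38 and 4.42 CPM in the double mutant and at 6.15, 5.87 and 5.58 CPM in pqm-1(ok485). The groups did not overlap, and the difference did not pass (log2 fold change -0.28 ± 0.10, adjusted p = 0.129 by edgeR). ceh-60 overlaps ets-4 and pqm-1 overlaps arrd-6 in the annotation, and reads were counted without strand. The same limit holds for gtl-1, crt-1, enpl-1, haf-4, Y46H3C.7, pitr-5 and W02D7.6, each of which overlaps another tested gene.

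The 6 vitellogenins fell most among abundant genes. Together they took 0.228, 0.09 and 0.16% of all counts in the double mutant, against 10.3, 7.86 and 9.21% in pqm-1(ok485). The mean share was 0.159% ± 0.0689 in the double mutant and 9.11% ± 1.2 in pqm-1(ok485) (SD, n = 3 each), 57.2 times larger in pqm-1(ok485). The groups did not overlap, and a two-sided exact permutation test gave p = 0.1, the smallest that 3 against 3 libraries allow.

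vit-6 (WBGene00006930, chromosome IV, 8261134 to 8266462), which encodes the yolk protein made from a gene outside chromosome X, was at 254, 78.9 and 158 CPM in the double mutant and at 46670, 37030 and 45020 CPM in pqm-1(ok485). Its log2 fold change was -8.03 ± 0.61 (adjusted p = 4.09e-06 by edgeR). vit-2 (chromosome X, 5101032 to 5106173) was at 1516, 583 and 1066 CPM in the double mutant and at 34480, 26000 and 31230 CPM in pqm-1(ok485). It therefore became the most abundant vitellogenin of the double mutant, although vit-6 led in pqm-1(ok485). The vit-2 log2 fold change was -4.86 ± 0.30 (adjusted p = 5.95e-07 by edgeR).

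vit-5 (chromosome X, 3403471 to 3408603) was at 8.37, 5.15 and 5.75 CPM in the double mutant, against 13080, 9245 and 11470 CPM in pqm-1(ok485). vit-4 (chromosome X, 3558839 to 3563974) was at 3.08, 1.5 and 2.0 CPM in the double mutant, against 2194, 1830 and 2237 CPM in pqm-1(ok485). These were the largest falls among genes with a mean of at least 5 CPM, with log2 fold changes of -10.77 ± 0.47 for vit-5 and -9.89 ± 0.18 for vit-4. vit-3 fell by 7.21 and vit-1 by 3.92 on the log2 scale (adjusted p = 1.57e-06 and 1.92e-05 by edgeR). In the double mutant, replicate 2 was lowest for all 6 genes and replicate 1 highest. Multi-mapping reads were left out by the counting, and the split of signal inside 2 sets of near-identical genes, one of vit-3 to vit-5 and the other of vit-1 with vit-2, is uncertain.

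**Figure D2:**
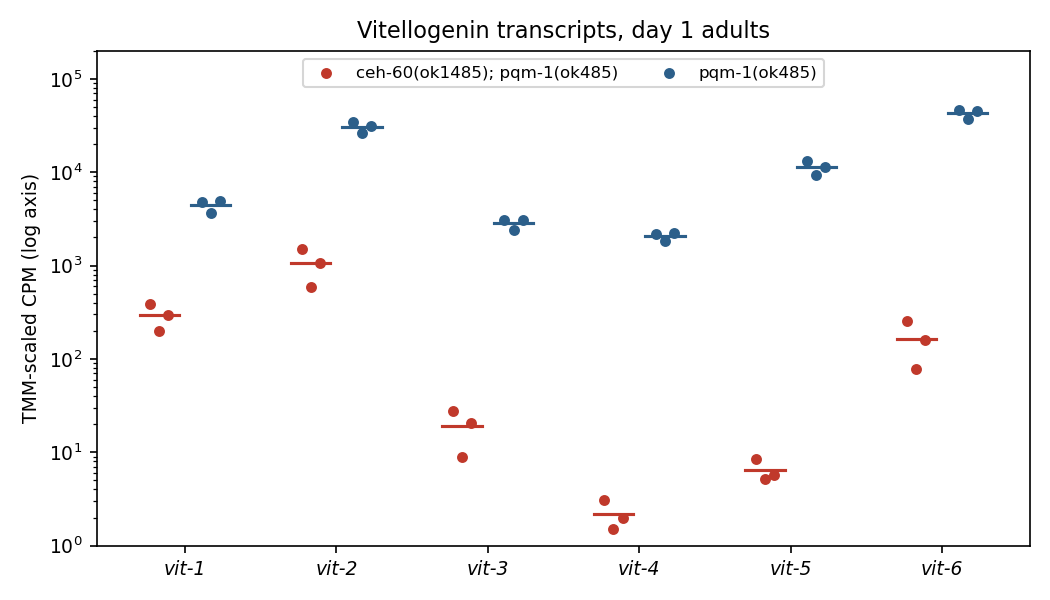
TMM-scaled CPM (log axis) of vit-1 to vit-6 in each library of the double mutant (red, left of each pair) and pqm-1(ok485) (blue, right), with bars at the group means. No gene has overlapping groups, and vit-2 has the highest mean in the double mutant, followed by vit-1 and vit-6.

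Genes for the handling of yolk were mostly not called. Of 9 genes of yolk secretion and uptake, 1 rose and none fell, with a median log2 fold change of 0.03. The riser was dsc-4, which encodes the large subunit of the microsomal triglyceride transfer protein that loads lipid onto secreted lipoproteins. It was at 129, 142 and 134 CPM in the double mutant, against 78.6, 61.6 and 68.8 CPM in pqm-1(ok485) (log2 fold change 0.95 ± 0.09, adjusted p = 1.67e-05 by edgeR). rme-2, the yolk receptor of oocytes, averaged 1311 CPM in the double mutant and 1221 CPM in pqm-1(ok485) (adjusted p = 0.497 by edgeR). Of 11 tested regulators known to act on vitellogenin genes, 2 fell, ceh-60 itself and lin-14, a heterochronic factor (log2 fold change -0.44 ± 0.09, adjusted p = 0.0075 by edgeR). unc-62, the MEIS partner gene, averaged 36.1 CPM in the double mutant and 40.4 CPM in pqm-1(ok485) (adjusted p = 0.205 by edgeR).

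Outside the vitellogenins, the largest rises among genes of at least 5 CPM were in cld-1 and dod-21, which lie next to each other on chromosome IV (12935011 to 12936271, reverse strand, and 12936738 to 12937988, forward strand). cld-1 was at 31.7, 12.7 and 16.7 CPM in the double mutant and at 0.362, 0.141 and 0.107 CPM in pqm-1(ok485), a log2 fold change of 6.46 ± 0.76 (adjusted p = 0.000127 by edgeR). dod-21 was at 32.6, 13.9 and 20.5 CPM in the double mutant and at 0.658, 0.235 and 0.268 CPM in pqm-1(ok485) (5.71 ± 0.66, adjusted p = 0.000109 by edgeR). Both genes were nearly silent in pqm-1(ok485), and their double mutant libraries spanned more than a 2-fold range. Y39G8B.9 followed, with 22.9, 30.7 and 25.1 CPM in the double mutant and 0.987, 1.41 and 1.98 CPM in pqm-1(ok485) (4.22 ± 0.21). The other risers of the first 10 were F33H12.7, gst-38, B0205.13, clec-67, ugt-19, Y37H2A.14 and T19C9.8, with log2 fold changes between 2.29 and 2.77. They include a glutathione transferase (gst-38), a C-type lectin (clec-67) and a UDP-glucuronosyltransferase (ugt-19).

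Below the vitellogenins, the largest falls among called genes that averaged 5 CPM or more and had separate groups were in Y40H7A.10, cpz-1, C10C5.4 and cest-10, a carboxylesterase gene. cpz-1, which encodes a cathepsin Z protease, was at 57.1, 37.6 and 44 CPM in the double mutant and at 397, 279 and 312 CPM in pqm-1(ok485) (log2 fold change -2.83 ± 0.25, adjusted p = 1.29e-05 by edgeR). Y40H7A.10 was at 6.32, 5.97 and 6.34 CPM in the double mutant and at 59.2, 49.8 and 51.3 CPM in pqm-1(ok485) (-3.10 ± 0.18). The groups were well separated for both genes. C10C5.4 and cest-10 fell by 2.62 and 2.15 on the log2 scale.

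Intestinal genes moved mostly upward. Of 30 genes of intestinal identity and the brush border, 15 rose and 3 fell, with a median log2 fold change of 0.37, beside -0.005 for all tested genes. ges-1, a gut esterase, averaged 41.5 CPM in the double mutant and 22 CPM in pqm-1(ok485) (log2 fold change 0.91, adjusted p = 0.000958 by edgeR). act-5, the actin of microvilli, averaged 891 CPM in the double mutant and 531 CPM in pqm-1(ok485) (0.75, adjusted p = 0.00101 by edgeR). elt-2, the GATA factor of the intestine, averaged 11.7 CPM in the double mutant and 15.1 CPM in pqm-1(ok485), and did not pass (adjusted p = 0.0815 by edgeR). These 3 defining markers were named for the cell type check and not for their change. The summed level of the list was 3850 to 4416 CPM in the double mutant and 2958 to 3107 CPM in pqm-1(ok485), so the groups did not overlap. In whole animals, a change in the number of cells of a type and a change of RNA per cell cannot be told apart.

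Within that list, the multidrug transporter genes pgp-1 and pgp-9 and the acid phosphatase gene pho-1 rose with the smallest p (pho-1 overlaps EGAP2.1). pgp-1 was at 105, 116 and 108 CPM in the double mutant, against 36.2, 34.4 and 29.1 CPM in pqm-1(ok485) (log2 fold change 1.72 ± 0.12). The 3 genes that fell were cah-4, a carbonic anhydrase, ifd-2, an intermediate filament gene, and gtl-1, a TRPM channel gene, with log2 fold changes of -0.59, -0.67 and -0.45. gtl-1 lost its call without replicate 1 of pqm-1(ok485), and without replicate 1 or 3 of the double mutant. Among 46 ABC transporters, 8 rose and 1 fell. haf-9 and haf-4, which encode half-transporters of intestinal granules, rose by log2 fold changes of 1.66 ± 0.06 and 1.67 ± 0.07 (adjusted p = 7.34e-09 and 1.2e-08 by edgeR). haf-9 stood at 134, 152 and 135 CPM in the double mutant and at 42.7, 45.7 and 45.1 CPM in pqm-1(ok485).

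Genes of proteolysis divided by enzyme. Of 8 cathepsin B and L genes, 5 rose and 2 fell. cpr-5, a cathepsin B-like protease gene, was at 561, 650 and 679 CPM in the double mutant and at 164, 133 and 163 CPM in pqm-1(ok485) (log2 fold change 2.04 ± 0.10, adjusted p = 8.54e-08 by edgeR). cpr-3 and cpr-4 rose by 1.59 ± 0.14 and 1.72 ± 0.26 on the log2 scale. cpl-1, the cathepsin L gene known for the processing of yolk in embryos, went the other way, at 669, 522 and 568 CPM in the double mutant and 1683, 1309 and 1484 CPM in pqm-1(ok485) (-1.35 ± 0.15, adjusted p = 6.68e-05 by edgeR). cpr-6 also fell (-0.93 ± 0.24, adjusted p = 0.0264 by edgeR), a call that was lost without replicate 1 of pqm-1(ok485) or without replicate 2 or 3 of the double mutant, with an adjusted p of up to 0.101 by edgeR over the settings tried. Of 11 aspartyl proteases, 5 rose and 1 fell, and with the replicate block 9 rose and 2 fell. Without replicate 1 of the double mutant or replicate 2 or 3 of pqm-1(ok485), 4 rose. asp-3, which encodes a cathepsin D-like enzyme, was at 2376, 2202 and 2125 CPM in the double mutant and at 1369, 1121 and 1275 CPM in pqm-1(ok485) (0.83 ± 0.09), and asp-13 fell (-0.77 ± 0.14).

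Most genes of the wider lysosome list did not pass. Of 49 lysosome and autophagy genes, 6 rose and 3 fell, beside 4.76% and 4.21% of all tested genes. The list had a median log2 fold change of 0.00. The number that fell was 1 without replicate 2 or 3 of the double mutant or replicate 1 of pqm-1(ok485), and 8 with the replicate block, where 9 rose. The glucosylceramidase genes gba-1 and gba-4 rose by log2 fold changes of 1.05 ± 0.08 and 1.17 ± 0.11, and lmp-1, a lysosomal membrane protein gene, by 0.62 ± 0.06. Of 21 subunits of the vacuolar ATPase, 6 rose and 1 fell, and 9 rose both with the replicate block and without replicate 1 of pqm-1(ok485). The number that rose was 1 without replicate 2 of either group, 2 without replicate 3 of the double mutant and 16 with scaling by totals alone. Every log2 fold change of that list lay between -0.25 and 0.35. Of 6 lysosomal lipase genes 2 rose, lipl-1 and lipl-5 (2.1 ± 0.41 and 0.57 ± 0.12).

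Defence lists differed in how many members passed, beside 4.76% that rose and 4.21% that fell among all tested genes. Of 17 immune genes known to need the p38 kinase PMK-1, 10 rose and none fell, with a median log2 fold change of 1.16. With the replicate block 14 rose and 1 fell. Without any one double mutant library or replicate 2 of pqm-1(ok485), or with only the 6 libraries fitted, 8 rose. The summed level of the list was 866 to 1059 CPM in the double mutant and 266 to 335 CPM in pqm-1(ok485), without overlap. lys-2, a lysozyme gene, was at 221, 251 and 228 CPM in the double mutant and at 51.7, 55.3 and 53.5 CPM in pqm-1(ok485) (log2 fold change 2.13 ± 0.11, adjusted p = 8.54e-08 by edgeR). C17H12.8 was at 261, 382 and 337 CPM in the double mutant and at 66.1, 95.2 and 86.5 CPM in pqm-1(ok485) (1.99 ± 0.20). clec-67 was at 76.7, 103.8 and 80.8 CPM in the double mutant and at 11, 19.5 and 20.1 CPM in pqm-1(ok485) (2.39 ± 0.21). For all 3 the lowest double mutant library exceeded the highest of pqm-1(ok485) more than 2-fold.

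Of 8 irg genes, named for their response to infection, 4 rose and none fell, with 2 that rose without replicate 2 or 3 of pqm-1(ok485). Of 11 lysozymes, 4 rose and none fell, and of 17 saposin-like genes, 4 rose and 1 fell. Lists share members, lys-2 and clec-67 among them, so their counts are not separate support. Of 28 pals genes and genes of the intracellular pathogen response, 4 rose and 1 fell. In that list 1 or 2 rose without any one double mutant library or without replicate 2 or 3 of pqm-1(ok485), and 11 rose with the replicate block. irg-8 and irg-1 rose by 1.38 ± 0.13 and 1.55 ± 0.28 on the log2 scale. Of 234 C-type lectins in the list, 20 rose, 5 fell, 79 were tested and did not pass and the rest were too low to test, and 15 of the risers changed at least 2-fold. With the replicate block 27 rose and 15 fell, and without replicate 2 of pqm-1(ok485) 10 fell. Among all tested genes 4.76% rose and 4.21% fell, and with the replicate block 1081 genes rose and 1079 fell. clec-63 was abundant, at 2545, 2345 and 2320 CPM in the double mutant and at 896, 821 and 960 CPM in pqm-1(ok485) (1.43 ± 0.10, adjusted p = 1.49e-06 by edgeR). Its relative clec-64 was at 3.03, 3.46 and 3.84 CPM in the double mutant and near silence in pqm-1(ok485), at 0.0658, 0.047 and 0.107 CPM (5.49 ± 0.33). clec-265 rose by 2.18 ± 0.11. Of 10 dod genes, first listed as acting downstream of the FOXO factor DAF-16, 6 rose and 1 fell. dod-24 and dod-19 rose by 1.76 ± 0.24 and 1.3 ± 0.11, while dod-23 fell to 33.5, 24 and 28.6 CPM in the double mutant, against 144, 117 and 117 CPM in pqm-1(ok485) (-2.14 ± 0.22).

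Antimicrobial peptide genes of the epidermis did not follow. Of 17 tested, none rose and 4 fell, with a median log2 fold change of -0.38, and 7 fell with the replicate block. The number that fell was 3 without replicate 1 or 2 of either group, and 2 without replicate 1 of both groups. nlp-33 was at 11.3, 13.3 and 12.4 CPM in the double mutant and at 19, 21.7 and 19.8 CPM in pqm-1(ok485) (-0.71 ± 0.08, adjusted p = 9.05e-05 by edgeR). nlp-31 fell by 0.74 on the log2 scale.

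Among genes of detoxification, more rose than fell, and most did not pass. Of all tested genes 4.76% rose and 4.21% fell, and with the replicate block 1081 genes rose and 1079 fell. Of 37 genes of glutathione transferases and glutathione synthesis, 13 rose and none fell. Of 54 UDP-glucuronosyltransferases, 13 rose and 4 fell, with 17 and 9 under the replicate block and 2 that fell without replicate 3 of either group. Of 56 cytochromes P450, 8 rose and 2 fell, and with the replicate block 15 rose and 7 fell. Leaving out single libraries gave 0 to 2 cytochromes P450 that fell, with 0 without replicate 2 of the double mutant or replicate 1 of pqm-1(ok485). gst-38 was at 11.07, 8.84 and 13 CPM in the double mutant and at 1.97, 1.74 and 1.39 CPM in pqm-1(ok485) (log2 fold change 2.66 ± 0.18, adjusted p = 1.71e-06 by edgeR). gst-6, ugt-2 and cyp-13A2 rose by 1.47 ± 0.09, 1.65 ± 0.16 and 1.76 ± 0.16. ugt-47 fell, at 16.6, 19.9 and 18.5 CPM in the double mutant and 44, 48.4 and 51.6 CPM in pqm-1(ok485) (-1.39 ± 0.10). The cadmium-responsive genes cdr-2 and cdr-4 rose by 1.89 ± 0.23 and 2.08 ± 0.23.

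Most lipid genes did not pass, and those called went in both directions. Of 32 genes of fatty acid and triglyceride synthesis, 2 rose and 6 fell, with a median log2 fold change of -0.052. Among all tested genes 4.76% rose and 4.21% fell, and the median was -0.005. The number that rose was 4 with the replicate block or without replicate 1 of pqm-1(ok485) and 1 without any other single library. fat-7, a delta-9 desaturase that makes oleic acid, was at 20.3, 36.2 and 25.6 CPM in the double mutant, against 111, 92.2 and 79.0 CPM in pqm-1(ok485) (log2 fold change -1.78 ± 0.22, adjusted p = 0.000173 by edgeR). fat-3, a desaturase of polyunsaturated fatty acid synthesis, fell by 0.78 and lpin-1, a lipin gene, by 0.35 on the log2 scale. dgat-2, a diacylglycerol acyltransferase gene, rose (1.24 ± 0.15, adjusted p = 0.000156 by edgeR). Of 47 genes of fatty acid activation and oxidation, 8 rose and 4 fell, with 5 that rose without replicate 1 of the double mutant and 14 with the replicate block. That list had a median log2 fold change of 0.098. acs-2, an acyl-CoA synthetase gene, fell to 9.31, 10.2 and 11.7 CPM in the double mutant, against 35.6, 24.4 and 38.4 CPM in pqm-1(ok485) (-1.66 ± 0.17). acdh-2, an acyl-CoA dehydrogenase gene, fell by 1.37, while acox-1.5, a peroxisomal oxidase gene, rose by 1.12. Among carbohydrate genes, the trehalase genes tre-2 and tre-4 moved apart, with log2 fold changes of -1.23 ± 0.09 and 1.00 ± 0.12.

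The secretory pathway also split. Of 27 genes of endoplasmic reticulum chaperones and folding, 9 rose and 4 fell, beside 4.76% and 4.21% of all tested genes. The calreticulin gene crt-1 was at 1728, 1727 and 1631 CPM in the double mutant and at 1067, 1015 and 1027 CPM in pqm-1(ok485) (log2 fold change 0.71 ± 0.06, adjusted p = 4.68e-06 by edgeR). The chaperone genes pdi-3 and enpl-1 rose by 0.52 ± 0.05 and 0.40 ± 0.04. The genes that fell encode parts of the channel that carries new proteins into the endoplasmic reticulum, sec-61.G, sec-61.B and sec-61.A (-0.59 ± 0.05, -0.58 ± 0.07 and -0.44 ± 0.08), and dnj-20, a J-domain protein gene. sec-61.G was at 182, 180 and 173 CPM in the double mutant, against 285, 260 and 260 CPM in pqm-1(ok485). In a list of 33 translocation genes chosen after these values were seen, none rose and 4 fell, among them trap-1 (-0.66 ± 0.07). That list counts sec-61 genes again and was chosen with their falls known, so its count is no separate support. Of 75 cytosolic ribosomal protein genes, 7 fell and none rose, with a median of -0.13. None fell when libraries were scaled by totals alone or when only the 6 libraries were fitted, and 17 fell with the replicate block. Leaving out single libraries gave 0 to 2 that fell without any one double mutant library or replicate 1 of pqm-1(ok485), and 17 without replicate 2 of pqm-1(ok485).

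**Figure D3:**
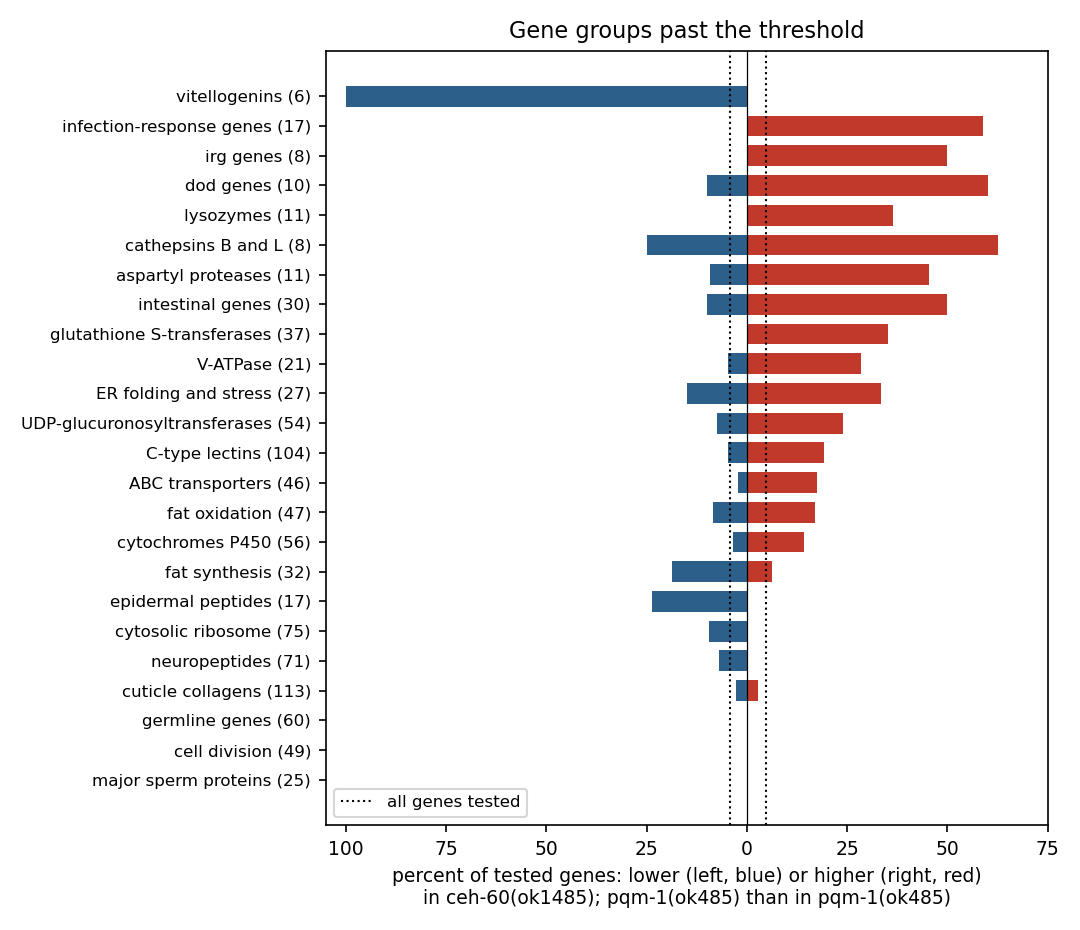
Percent of the tested genes of each list that were higher (red, to the right) or lower (blue, to the left) in the double mutant than in pqm-1(ok485), with the number tested in brackets and dotted lines at the share of all tested genes. All vitellogenins fell, defence, detoxification and intestinal lists extend mostly to the right, and germline, cell division and major sperm protein lists have no bar. The list of 17 infection-response genes is that of genes known to need PMK-1.

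Lists of other cell types gave few calls, and some of them lay below or above 0 on balance. None of 60 germline genes, 49 cell division genes, 25 major sperm protein genes or 45 other sperm genes passed in the 12-library fit. Major sperm protein genes had a median log2 fold change of 0.65 and other sperm genes of 0.54. Without replicate 2 of the double mutant these medians were 0.04 and 0.02. With the replicate block 7 major sperm protein genes and 9 other sperm genes rose, and scaled by totals alone 9 germline and 18 cell division genes rose. The summed major sperm protein level was 55.4, 171 and 80.2 CPM in the double mutant and 38.8, 94.3 and 63.3 CPM in pqm-1(ok485), highest in replicate 2 of both groups. glh-1, a germline helicase gene, averaged 640 CPM in the double mutant and 603 CPM in pqm-1(ok485), and unc-54, the myosin of body wall muscle, 885 CPM in the double mutant and 863 CPM in pqm-1(ok485) (adjusted p = 0.369 and 0.965 by edgeR). Of 71 neuropeptide genes 5 fell and none rose, but 2 fell without replicate 3 of the double mutant or replicate 1 of pqm-1(ok485), 3 without replicate 2 of the double mutant and 8 with the replicate block. Of 15 pharyngeal muscle genes 1 fell and none rose, with a median log2 fold change of -0.65. None fell without replicate 2 or 3 of the double mutant or replicate 1 or 3 of pqm-1(ok485). All 3 double mutant libraries lay below all 3 of pqm-1(ok485) for 7 of the 15, and 6 fell with the replicate block. Among all 13324 tested genes, 4.21% fell, 14.1% lay below in this way, and 1079 genes fell with the replicate block. Of 50 hedgehog-related genes 1 rose and 3 fell, with a median of -0.42, 15 lay below in all libraries, and 12 fell with the replicate block. In that list 1 fell without replicate 1 or 3 of the double mutant or replicate 1 of pqm-1(ok485), 2 without replicate 2 of the double mutant, and 5 without replicate 3 of pqm-1(ok485). Of 113 cuticle collagens 3 rose and 3 fell, and with the replicate block 13 rose and 14 fell. The number of collagens that fell was 0 to 5 on leaving out single libraries, with 0 without replicate 1 of either group. myo-2, a myosin of pharyngeal muscle, fell in the double mutant (2.78, 2.01 and 2.19 CPM, against 6.38, 3.62 and 5.36 CPM in pqm-1(ok485), log2 fold change -1.14 ± 0.29, adjusted p = 0.0253 by edgeR), a call lost without replicate 1 or 3 of pqm-1(ok485), or without replicate 2 or 3 of the double mutant. The part of these cell types in the intestinal and defence results was not tested.

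ins-35 was the insulin-like peptide gene that rose, of 11 tested. The 1 that fell, ins-17 (adjusted p = 0.0474 by edgeR), lost its call in 11 of 14 settings. ins-35 was at 9.87, 7.75 and 7.67 CPM in the double mutant and at 0.461, 0.188 and 0.161 CPM in pqm-1(ok485), a log2 fold change of 4.82 ± 0.29 (adjusted p = 5.11e-07 by edgeR). Calls were unequally spread over chromosomes. On chromosome V 7.19% of 2504 tested genes were higher and 4.91% lower in the double mutant, and on chromosome X 6.43% of 1883 were higher and 7.43% lower. On chromosome I the shares were 2.35 and 2.72% of 2209 genes, and none of 14 mitochondrial genes passed.

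The effect of ceh-60(ok1485) in pqm-1(ok485) was next set against its effect in wild type animals, which have pqm-1 intact, by a test of the difference in 18 day 1 libraries. Of 13589 genes tested, the effect was higher in the pqm-1(ok485) background for 36 (0.265%) and lower for 566 (4.17%). Of these 566, 432 rose with ceh-60 loss in wild type background, and in pqm-1(ok485) 69 of them rose, 48 fell and 315 did not pass. Another 102 of the 566 fell in pqm-1(ok485) and did not pass in wild type, and 16 fell in both. Leaving out each library in turn gave between 220 and 1044 such differences in either direction, against 602 with all libraries. The lowest count came without replicate 1 of ceh-60(ok1485) and the highest without replicate 1 of wild type, and the count was also moved by over 1.5 times without replicate 1 or 3 of the double mutant (354 and 235) and without replicate 2 or 3 of wild type (296 and 337). With the replicate block it was 943. The pqm-1(ok485) and wild type libraries are in separate deposited tables, and each effect lies within a table. A constant shift between the tables cancels. A ceh-60 effect that differs by table and one that differs by pqm-1 background cannot be told apart.

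Of the 6 vitellogenins, 4 fell further in the pqm-1(ok485) background than in wild type. In the 18-library fit the log2 effect on vit-2 was -4.80 in pqm-1(ok485) and -2.80 in wild type, a difference of -2.0 ± 0.36 (adjusted p = 0.00616 by edgeR). vit-4, vit-5 and vit-6 differed by -1.46 ± 0.37, -2.43 ± 0.6 and -2.57 ± 0.66 in the same order (adjusted p = 0.0351, 0.0315 and 0.0354 by edgeR). Each of these last 3 calls was lost without replicate 2 or 3 of the double mutant, replicate 2 of ceh-60(ok1485), or replicate 2 or 3 of wild type. Those of vit-5 and vit-6 were also lost without replicate 1 of pqm-1(ok485), and those of vit-4 and vit-6 without replicate 3 of ceh-60(ok1485). vit-1 and vit-3 did not pass (adjusted p = 0.605 and 0.103 by edgeR).

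The ceh-60 effect on measured pqm-1 transcripts also differed. ok485 and rhd90 are alleles of pqm-1 itself, and the labels do not state what they remove. The gene also overlaps arrd-6. A differing response and an altered measurement of this gene cannot be told apart. On the 18-library scale pqm-1 was at 4.84, 5.42 and 4.46 CPM in the double mutant and at 5.72, 5.86 and 5.56 CPM in pqm-1(ok485), while it was at 29.9, 28.6 and 28.1 CPM in ceh-60(ok1485) and at 10.9, 10.8 and 10.2 CPM in wild type. The ceh-60 effect was thus -0.22 in pqm-1(ok485) and 1.45 in wild type on the log2 scale, a difference of -1.67 ± 0.12 (adjusted p = 5.47e-07 by edgeR). In the pqm-1(rhd90) background it was 0.70, and the difference of pqm-1(ok485) from it was -0.97 ± 0.14 (adjusted p = 0.0125 by edgeR).

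Some genes, of defence among others, rose with ceh-60 loss in wild type and were not called in pqm-1(ok485). lys-7, a lysozyme gene, was at 192, 136 and 159 CPM in the double mutant and at 102, 168 and 242 CPM in pqm-1(ok485), and the groups overlapped. It was at 162, 134 and 128 CPM in ceh-60(ok1485) and at 38.2, 23.4 and 29.7 CPM in wild type. The difference of effects was -2.28 ± 0.43 (adjusted p = 0.00824 by edgeR). F55G11.4 was at 63.8, 43 and 47 CPM in the double mutant and at 27.1, 35.3 and 52.5 CPM in pqm-1(ok485), against 137, 77.9 and 95.9 CPM in ceh-60(ok1485) and 15.7, 8.05 and 11.9 CPM in wild type (difference -2.69 ± 0.44, adjusted p = 0.00352 by edgeR). pitr-5, a phosphate transporter family gene, had a difference of -2.38 ± 0.58 (adjusted p = 0.0295 by edgeR), a call lost without replicate 1 or 3 of the double mutant or replicate 2 of wild type. In the 12-library fit its effect in pqm-1(ok485) was 0.95 on the log2 scale and did not pass (adjusted p = 0.131 by edgeR). For lys-7 and F55G11.4 the level in pqm-1(ok485) already lay above that in every wild type library. That comparison crosses the deposited tables, where a level shift would not cancel. In pqm-1(rhd90), lys-7 was at 21.85, 24.2 and 19.1 CPM and F55G11.4 at 9.67, 13.9 and 10.1 CPM.

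The difference was also examined for several genes chosen after their values were seen. The ceh-60 effect on cah-4 was lower than in wild type by 0.94 ± 0.10 on the log2 scale, with an effect of 0.41 in wild type. For nlp-33 the difference was -1.06 ± 0.15, for myo-2 -2.64 ± 0.42, for acdh-2 -1.28 ± 0.19 and for cpl-1 -0.88 ± 0.17, with adjusted p between 4.71e-05 and 0.00839 by edgeR, and none of these 5 calls was lost in the 18 settings tried. In wild type background the effect on nlp-33 was 0.40, on myo-2 1.55, on acdh-2 -0.04 and on cpl-1 -0.41. Against pqm-1(rhd90) the differences of these 5 genes had the same sign, and none passed (adjusted p = 0.0535 to 0.333 by edgeR). The genes were chosen with their values known, so the kept calls are no separate support.

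Among the 36 genes with a higher effect in pqm-1(ok485), 8 rose there and 19 fell in wild type background. dod-21 was foremost (difference 4.27 ± 1.05, adjusted p = 0.0305 by edgeR). It was at 33, 14 and 20.7 CPM in the double mutant and at 0.612, 0.235 and 0.267 CPM in pqm-1(ok485), against 22.2, 3.98 and 7.08 CPM in ceh-60(ok1485) and 5.76, 2.99 and 2.98 CPM in wild type. Its level in pqm-1(ok485) was therefore the lowest of the 4 groups, and its call was lost in 8 settings that each left out 1 library, every pqm-1(ok485) library among them. asp-12, an aspartyl protease gene, had a difference of 2.13 ± 0.50, and ZC317.7, Y46H3C.7, C07A9.9 and egg-4 had differences of 0.76, 0.66, 0.63 and 0.44, with adjusted p between 0.0163 and 0.0466 by edgeR. The asp-12 call was lost without any one of 6 libraries and the egg-4 call without any one of 8. That of C07A9.9 was lost without replicate 2 or 3 of the double mutant or replicate 2 or 3 of wild type.

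**Figure D4:**
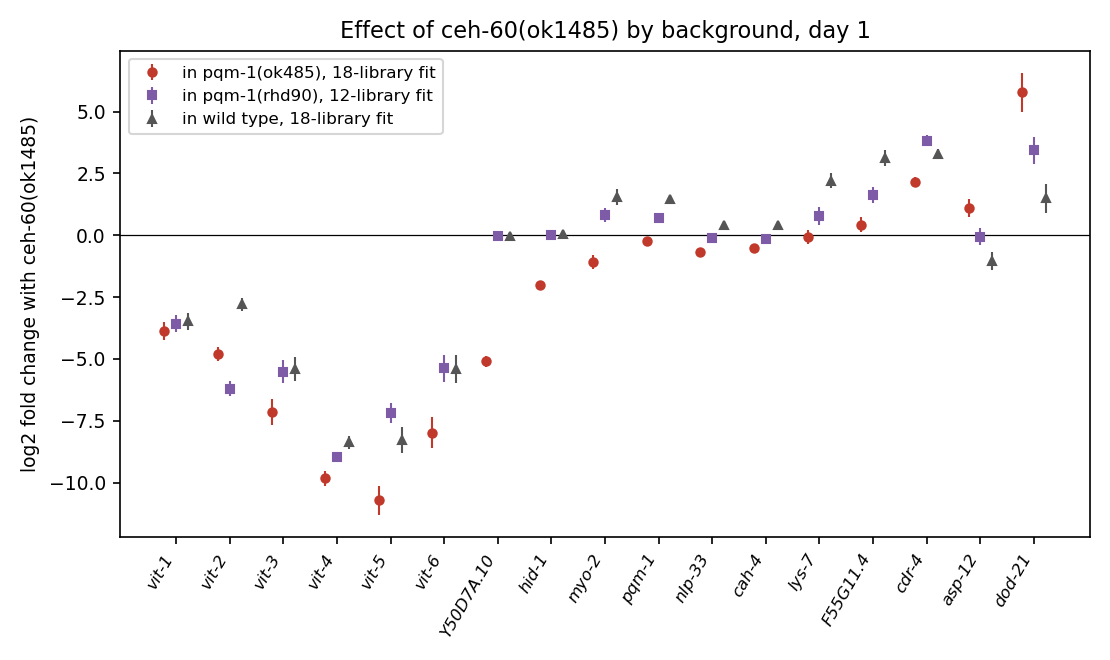
Log2 fold change (± SE) brought by ceh-60(ok1485) for named genes in the pqm-1(ok485) (red circles), pqm-1(rhd90) (purple squares) and wild type (grey triangles) backgrounds, from the fit named in the legend. Y50D7A.10 and hid-1 are displaced below 0 in pqm-1(ok485) and lie near 0 in the other backgrounds.

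Between the 2 pqm-1 alleles the ceh-60 effect differed for few genes. This comparison and that with wild type share the 6 libraries of the double mutant and pqm-1(ok485). Of 13324 tested, it was higher in pqm-1(ok485) than in pqm-1(rhd90) for 4 (0.0300%) and lower for 42 (0.315%). The total of 46 became 33 without replicate 1 of pqm-1(ok485), 100 without replicate 2 of ceh-60(ok1485); pqm-1(rhd90), 14 to 21 without any other single library and 241 with the replicate block. vit-5 was the vitellogenin that passed (difference -3.58 ± 0.48, adjusted p = 0.0113 by edgeR). It averaged 97.2 CPM ± 52.1 in the ceh-60(ok1485); pqm-1(rhd90) animals and 14290 CPM ± 395 in pqm-1(rhd90) (SD, n = 3 each). For vit-2 the difference was of the other sign, 1.35 ± 0.36, and did not pass (adjusted p = 0.19 by edgeR).

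Transcripts of Y50D7A.10 and hid-1 were reduced in the double mutant and in no other ceh-60(ok1485) strain. Y50D7A.10 (WBGene00021758, chromosome III, 315460 to 321721, forward strand) was at 0.0432, 0.413 and 0.237 CPM in the double mutant and at 8.26, 6.75 and 9.09 CPM in pqm-1(ok485) on the 18-library scale. Elsewhere it was at 15.3, 14.8 and 15.5 CPM in ceh-60(ok1485); pqm-1(rhd90), 15, 15.1 and 15.6 CPM in pqm-1(rhd90), 17.1, 17.3 and 19.4 CPM in ceh-60(ok1485) and 17.5, 19.1 and 18 CPM in wild type. The pqm-1(ok485) libraries thus lay below every library of these 4 groups, and the double mutant libraries below pqm-1(ok485). The effect of ceh-60(ok1485) in pqm-1(ok485) was -5.16 ± 0.28 (adjusted p = 2.2e-07 by edgeR), and it differed from that in wild type by -5.09 ± 0.28 and from that in pqm-1(rhd90) by -5.14 ± 0.34 (adjusted p = 2.35e-08 and 1.21e-05 by edgeR).

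hid-1 (WBGene00001844, chromosome X, 2489044 to 2494339, forward strand), known for the sorting of dense core vesicles, was at 6.57, 6.02 and 5.41 CPM in the double mutant, against 24.9, 22.8 and 24.6 CPM in pqm-1(ok485). The means of the other 4 groups were 22.9 to 23.9 CPM, so that the double mutant alone was low. The differences were -2.04 ± 0.13 from wild type and -2.06 ± 0.14 from pqm-1(rhd90) (adjusted p = 6.38e-08 and 1.21e-05 by edgeR). Each strain is a single line, and whether such reductions belong to the genotype or to the line cannot be told apart.

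**Figure D5:**
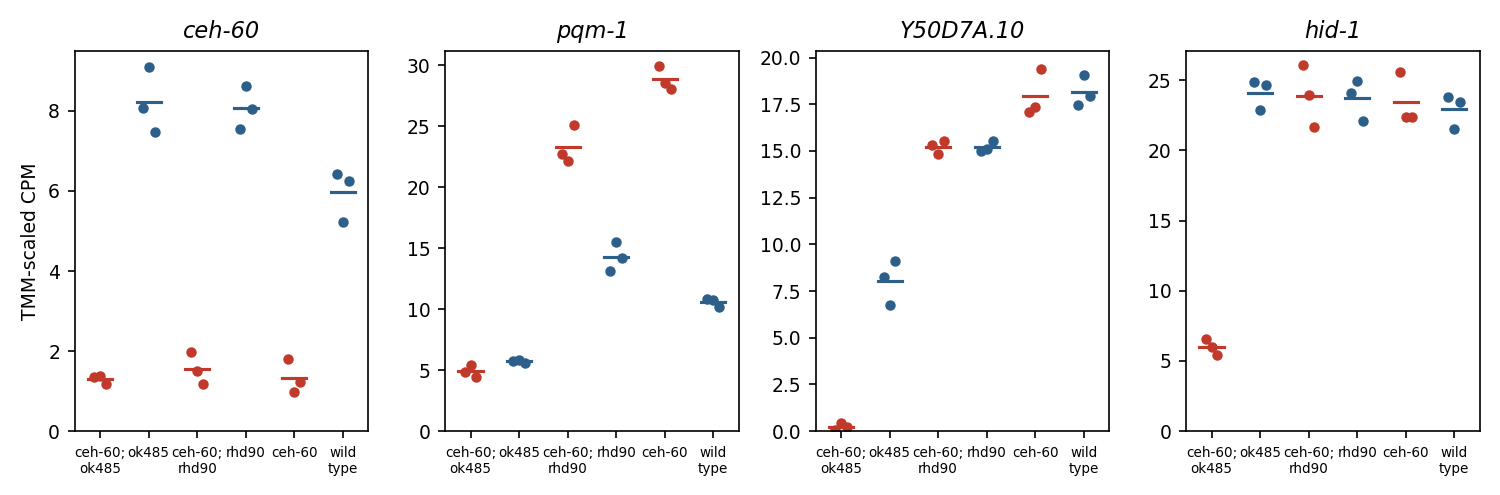
TMM-scaled CPM of ceh-60, pqm-1, Y50D7A.10 and hid-1 in each of the 18 day 1 libraries, with bars at the group means, strains with ceh-60(ok1485) in red and those without in blue. The double mutant has the lowest hid-1 and Y50D7A.10 values, and pqm-1 is higher in ceh-60(ok1485) strains apart from the pqm-1(ok485) pair.

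Other genes with an effect that differed from that in pqm-1(rhd90) were the pseudogene WBGene00020981 (-1.98 ± 0.29), C54E4.5 (-1.80 ± 0.32) and cdr-4 (-1.75 ± 0.32), with adjusted p between 0.0162 and 0.0407 by edgeR. cdr-4 rose in both backgrounds, to 44.5, 27.7 and 40.9 CPM in the double mutant, against 11, 6.99 and 7.0 CPM in pqm-1(ok485), and to 224, 165 and 203 CPM in ceh-60(ok1485); pqm-1(rhd90), against 16.6, 12 and 12.79 CPM in pqm-1(rhd90). The calls for cdr-4 and C54E4.5 were lost without any single library other than replicate 2 of ceh-60(ok1485); pqm-1(rhd90). That of WBGene00020981 was lost without replicate 2 or 3 of the double mutant or replicate 1 or 2 of pqm-1(rhd90). tre-2, named after its values were seen, fell further in pqm-1(ok485) than in either other background (differences of -0.80 ± 0.13 from pqm-1(rhd90) and -0.65 ± 0.11 from wild type, adjusted p = 0.0227 and 0.00593 by edgeR). The tre-2 difference from pqm-1(rhd90) lost its call without any one of 7 libraries, replicates 2 and 3 of the double mutant and of pqm-1(ok485) among them. Higher effects in pqm-1(ok485) were found for cls-3, a CLASP family gene (2.15 ± 0.14), fbxa-192, an F-box gene (1.05 ± 0.17), and W02D7.6 (0.54 ± 0.09). The fbxa-192 call was lost without any one of 9 libraries and the W02D7.6 call without any one of 8, every double mutant library among them, while that of cls-3 was lost in none of 19 settings. For cls-3 the effect in pqm-1(ok485) was 0.14 and did not pass, and that in pqm-1(rhd90) was -2.01.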

How the data were processed

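RNA of whole day 1 adults was isolated with Trizol and made into TruSeq RNA v2 libraries, a kit that does not mark strand, per the labels' protocols. Reads were aligned with STAR 2.5.4 per the submitters' processing notes. The deposited values are raw counts per gene over exons, made by featureCounts 1.5.2 with the WormBase release 260 gene set per the file headers, without strand and without reads that map to several places. The 2 tables hold 46778 genes each, and symbols were found for 43818. The members and gene lists were chosen with earlier results of these data known.

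Counts were analysed with edgeR 4.0.16 in R 4.3.3 (filterByExpr by group, TMM scaling, quasi-likelihood F-tests, Benjamini-Hochberg threshold 0.05, no block). The main fit used the 12 libraries of the pqm-1 table (8 residual degrees of freedom, biological coefficient of variation 0.106), and the difference from wild type 18 day 1 libraries. The scripts were tested on simulated data. Alternatives were RLE and total-count scaling, TMM without the vitellogenins, DESeq2 1.42.0, no filter, the replicate block, other sets of libraries and leaving out each library.

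Named genes were the mutated genes and vitellogenins, the 10 genes with the largest fold change each way that passed, averaged 5 CPM or more and had separate groups, up to 3 rising and 3 falling members of each list by p, and the 6 largest differences in each direction per background. Cell type markers and genes said to be chosen later lie outside this rule. Deviations from the group means of same-numbered libraries correlated at 0.482, 0.471 and 0.156 across genes. Between libraries of different number they correlated at -0.483 to 0.139, so number 3 is not shown to be paired. The main fit left such pairing out. No sequences are shown.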

Additional observations from a re-analysis of the deposited data

Results flagged for a closer look

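The effect of ceh-60(ok1485) differed between backgrounds by a test of the difference for the following named genes, each given as the log2 effect in pqm-1(ok485) minus that in the other background, with adjusted p by edgeR's quasi-likelihood test. Against wild type background the difference was -5.09 for Y50D7A.10, -2.69 for F55G11.4, -2.64 for myo-2, -2.57 for vit-6, -2.43 for vit-5, -2.38 for pitr-5, -2.28 for lys-7, -2.04 for hid-1, -2.0 for vit-2, -1.67 for pqm-1, -1.46 for vit-4, -1.28 for acdh-2, -1.06 for nlp-33, -0.94 for cah-4, -0.88 for cpl-1 and -0.65 for tre-2. It was 4.27 for dod-21, 2.13 for asp-12, 0.76 for ZC317.7, 0.66 for Y46H3C.7, 0.63 for C07A9.9 and 0.44 for egg-4. Against pqm-1(rhd90) background the difference was -5.14 for Y50D7A.10, -3.58 for vit-5, -2.06 for hid-1, -1.98 for WBGene00020981, -1.80 for C54E4.5, -1.75 for cdr-4, -0.97 for pqm-1 and -0.80 for tre-2, and it was 2.15 for cls-3, 1.05 for fbxa-192 and 0.54 for W02D7.6.

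Groups of 3 libraries were too small for a test of single outlying values.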

How the results depend on the processing

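The 1195 calls for ceh-60 loss in pqm-1(ok485) became 2329 with scaling by totals alone and 2160 with the replicate block. RLE scaling, TMM without the vitellogenins, DESeq2, no filter and a fit of only the 6 libraries gave 814 to 1363. Leaving out each library gave 738 to 1106 calls, and the count at 2-fold or more stayed within 1.5 times of 420 in every setting. For the difference from wild type, 602 calls became 920 with DESeq2, 943 with the replicate block and 220 to 1044 on leaving out each library. For the difference from pqm-1(rhd90), 46 calls became 1.2e+02 with DESeq2 (106 lower and 13 higher), 96 with no filter, 241 with the replicate block and 14 to 100 on leaving out each library. The cause of these shifts was not tested. The vitellogenin share differed by -9.57 to -8.37 percentage points on leaving out each library and by -8.95 when paired by number, where the smallest p of an exact sign-flip test is 0.25. Of 193 called named genes, 129 kept their call in all 14 settings, none lost it with the replicate block and 31 lost it without replicate 1 of pqm-1(ok485). Many of them were named for a small p or a large change, so they do not stand for all 1195 calls. The block fit also made more calls, so keeping a call there is weak support. No called named gene changed sign in these settings, while the uncalled Y46H3C.7, lys-7 and W02D7.6 did. The depth of these libraries limits calls on genes of low counts.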
